A study of Mus musculus with 6 samples.

Results

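Type I interferon response genes were described here in RNA of splenic CD3+ T cells. The set holds 35 genes, picked by name out of 49671 in the deposited tables for their known induction by type I interferon and their antiviral roles, and all 35 were found. The stimulated group comprised 3 libraries of cells kept in culture for 48 h (day 2) with anti-CD3 bound to the plate at 1 µg/ml and anti-CD28 in solution at 10 µg/ml. Both antibodies act on receptors of T cells: anti-CD3 on the antigen receptor complex, anti-CD28 on a costimulatory receptor. The unstimulated group comprised 3 libraries of cells taken straight after isolation (day 0), without culture, so the effects of stimulation and of time in culture cannot be told apart. All mice were F1 females of a C57BL/6 mother (mus), which carried a deletion of Xist on 1 of its X chromosomes, and an M. m. castaneus father (cast). That cross is a model of skewed X inactivation, and it applies to both groups alike. No group was treated with interferon. The labels call the replicates biological without naming animals, so p-values measure the spread between these libraries, and the number of animals behind them is not given.

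Expression was given as RPKM, the reads of a gene scaled to its length in kilobases and to a library of 1 M (mega) reads, for both alleles together, and the reads that could be assigned to an allele were given as counts. Between 14.9 M and 20.2 M reads per stimulated library could be assigned, and between 9.61 M and 11.9 M per unstimulated library. Each of 14 T cell marker genes, among them Cd3e and Lck, was at or above 1 RPKM in all 6 libraries. Gene positions are those of GENCODE M21 on mm10.

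Type I interferons are secreted when a cell senses foreign nucleic acid. They bind a receptor of 2 chains, Ifnar1 and Ifnar2, whose kinases Jak1 and Tyk2 set off the assembly of the complex ISGF3. It contains Stat2 and Irf9 and binds interferon-stimulated response elements in promoters. The genes it switches on encode nucleic acid sensors, proteins that block viral entry, translation or replication, and brakes on the pathway. T cells keep a low level of many of these genes at rest, and interferon can restrain or support their expansion depending on when it acts.

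Promoter sequences are shown for the 8 members in which the core of that response element, GAAANNGAAA on either strand, lay wholly before the start site, since ISGF3 binds this motif. They come from RefSeq on GRCm38.p6, which held windows from 250 bases before to 50 bases after the start for 25 of the 35 members. Of these 25, 12 (48.0%) held the motif in at least 1 window, against 3.99% of 27025 genes with a window. Each line runs 5′ to 3′ along the gene, and capitals mark the motif, with overlapping copies run together.
Ifit3: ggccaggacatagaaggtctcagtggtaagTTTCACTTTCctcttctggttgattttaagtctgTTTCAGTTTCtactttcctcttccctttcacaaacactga
Ifit1: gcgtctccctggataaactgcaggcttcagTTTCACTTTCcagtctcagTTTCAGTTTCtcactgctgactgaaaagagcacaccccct
Rsad2: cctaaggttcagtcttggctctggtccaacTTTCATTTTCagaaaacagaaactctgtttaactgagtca
Oas1a: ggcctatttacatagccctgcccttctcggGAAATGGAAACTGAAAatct
Isg15: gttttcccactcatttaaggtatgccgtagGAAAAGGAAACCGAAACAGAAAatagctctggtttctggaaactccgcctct
Trim30a: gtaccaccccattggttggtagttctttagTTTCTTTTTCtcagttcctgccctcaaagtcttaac
Oas3: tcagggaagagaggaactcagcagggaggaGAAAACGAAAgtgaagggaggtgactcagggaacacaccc
Bst2: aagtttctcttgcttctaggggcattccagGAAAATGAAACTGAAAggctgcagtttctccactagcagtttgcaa
These stretches lie at chr19:34583343-34583446 (plus strand) for Ifit3, chr19:34640755-34640843 (plus) for Ifit1, chr12:26456533-26456602 (minus) for Rsad2 and chr5:120907526-120907575 (minus) for Oas1a. Those of Isg15, Trim30a, Oas3 and Bst2 lie on the minus strand at chr4:156200845-156200926, chr7:104465194-104465259, chr5:120777695-120777764 and chr8:71537557-71537632. The motif ended between 5 bases (Oas1a) and 115 bases (Bst2) before the start site, counted from the copy nearest to it. Isg15 held 3 overlapping copies. Genes with the motif were found on both sides of the comparison described next: Ifit3, Ifit1, Rsad2 and Oas1a were lower in stimulated cells, Oas3 and Bst2 were higher, and Isg15 and Trim30a did not pass the test. Over all windows, 7 of 17 members that were lower held the motif, as did both members that were higher and 3 of 5 that did not pass. A motif match is a description of letters and not of a bound site.

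Most of the interferon response genes were lower in stimulated cells on day 2 than in cells taken on day 0. Without a filter on low values, 26 of 35 members were lower and 2 were higher at an adjusted p under 0.05 (limma, Benjamini-Hochberg over all genes), where 35.3% of 25955 genes were lower. With the filter used below, 1 RPKM or more in 3 or more libraries, 34 members were tested. Of these, 25 (73.5%) were lower against a background of 48.9% of 13288 genes, 2 (5.88%) were higher against 31.2%, and 7 did not pass. Most genes differed between the groups: 80.1% of all genes tested passed the threshold in either direction. The median log2 fold change was -1.23 over the members tested and -0.24 over all genes tested, and fold changes of RPKM are to be read against that second value. After each library was centred on its median, which brought the median of all genes to 0.02, 23 members were lower and 5 were higher, against 39.2% and 40.9% of all genes. Of the members tested, 8 stayed below 1 RPKM in every stimulated library and thus entered the test only through the unstimulated ones. Isg20, Oas1a, Mx1 and Xaf1 were below 1 RPKM in some stimulated libraries and also needed the unstimulated ones to enter. Of the 22 members at or above 1 RPKM in all 6 libraries, 13 (59.1%) were lower, against 42.0% of 10062 such genes.

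The 35 members together summed to 377, 371 and 382 RPKM in the stimulated libraries, against 591, 644 and 696 RPKM in the unstimulated ones. The stimulated sums lay close together, and all of them were below the lowest unstimulated sum. In each stimulated library 24 members reached 1 RPKM, and in each unstimulated library 34 did. For 26 of the 35 members (74.3%) every stimulated library was below every unstimulated one, which held for 50.7% of all genes tested, and for 2 members every stimulated library was above, which held for 32.7%. The groups overlapped for the other 7. The unstimulated libraries differed more among themselves: 20 members were highest in unstimulated replicate 3, and 25 were lowest in unstimulated replicate 1. The share of all genes with that order was not counted, so nothing particular to the members is read from it.

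**Figure D1:**
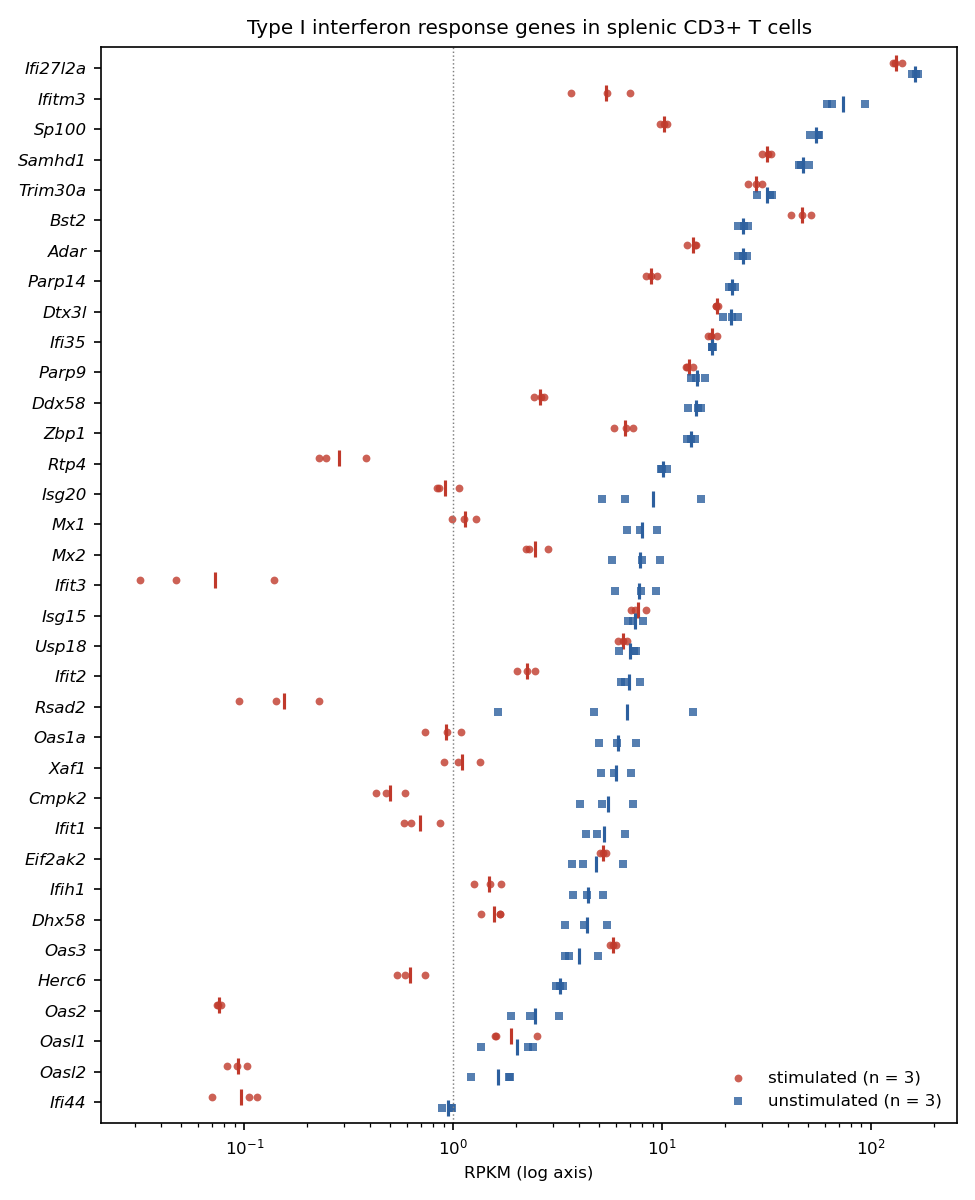
RPKM of each of the 35 genes (log axis) in 3 stimulated libraries (circles) and 3 unstimulated libraries (squares), with short vertical lines at the group means and a dotted line at 1 RPKM. Genes are ordered by their unstimulated mean, and 26 of them have every stimulated point left of every unstimulated point.

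The cells collected on day 0 held more RNA of other cell types than the cultured cells did. Marker genes of myeloid cells (11 genes, such as Lyz2 and Csf1r) summed to 5.08 to 8.66 RPKM in stimulated libraries and 1212 to 3448 RPKM in unstimulated ones, and Adgre1 was listed at 0 in every stimulated library. B cell markers (11 genes) summed to 11.8 to 24.3 RPKM in stimulated and 131 to 261 RPKM in unstimulated libraries. NK cell markers (7 genes) summed to 12.2 to 17.8 RPKM in stimulated and 271 to 374 RPKM in unstimulated libraries. Much of that sum came from Tyrobp, at 144, 177 and 216 RPKM in unstimulated libraries. All B and NK cell markers, and all 10 myeloid markers tested, were lower by limma. Markers of conventional dendritic cells (5 genes) summed to 1.06 to 1.62 RPKM in stimulated and 27.7 to 35.3 RPKM in unstimulated libraries, with Xcr1 and Clec9a listed at 0 in stimulated libraries. Markers of plasmacytoid dendritic cells (5 genes), known as strong producers of type I interferon, summed to 1.95 to 2.42 RPKM in stimulated and 17.8 to 21.4 RPKM in unstimulated libraries, with Siglech listed at 0 in every stimulated one. In unstimulated cells Pacsin1 (6.68 RPKM) and Ccr9 (4.95 RPKM) had the highest means of that list. Ccr9 was at 5.64, 5.45 and 3.76 RPKM there, lowest in replicate 3, while the rest of the list was highest in that replicate. Pacsin1 kept 1.16 to 1.37 RPKM in stimulated libraries. The sum of the list is therefore not read as RNA of plasmacytoid dendritic cells alone. The 4 tested were lower, and Cox6a2, not tested, hardly differed (0.886 RPKM in stimulated and 0.892 RPKM in unstimulated cells). Erythroid and platelet markers (10 genes) summed to 2.32 to 15.4 RPKM in stimulated and 88.1 to 1409 RPKM in unstimulated libraries. Of the 9 tested, 8 were lower, and the platelet gene Pf4 did not pass (log2 -0.06, limma adjusted p = 0.887). T cell markers (14 genes) summed to 1596 to 1667 RPKM in stimulated and 1680 to 2068 RPKM in unstimulated libraries. Of these, 2 were higher, 8 were lower and 4 did not pass, or 2 higher and 4 lower after median centring. Of all genes tested, 48.9% were lower and 31.2% higher, or 39.2% and 40.9% after median centring. All counts of markers are to be read against these shares, and nothing particular to the T cell markers is read from theirs. Unstimulated replicate 3 had the highest sums of the myeloid, B cell, NK cell, dendritic and erythroid lists. The part of these cells in the changes of the interferon response genes was not tested, and in bulk RNA fewer cells of a type and less RNA per cell cannot be told apart.

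The Ifit family, whose proteins bind foreign RNA and block its translation, lies as a run of genes on chromosome 19, with 32.8 kb between the start sites of Ifit2 and Ifit3 and 57.3 kb between those of Ifit3 and Ifit1. All 3 were lower. Ifit3 (chr19:34583531-34588731) had 0.139, 0.0317 and 0.0471 RPKM in stimulated cells, against 5.93, 9.32 and 7.93 RPKM in unstimulated cells (log2 fold change -3.01 on the scale of RPKM + 1, limma adjusted p = 5.95e-06). It was close to absent from stimulated cells, in which only 2 allelic reads were counted over 3 libraries. Ifit1 averaged 0.692 ± 0.148 RPKM in stimulated and 5.27 ± 1.20 RPKM in unstimulated cells (SD, n = 3 each; log2 -1.88, adjusted p = 3.83e-05). Ifit2 was at 2.25 ± 0.211 RPKM in stimulated and 6.95 ± 0.798 RPKM in unstimulated cells (log2 -1.29, adjusted p = 3.43e-05). Ifit3 and its near copy Ifit3b can share reads, so the split between the pair is uncertain, but Ifit3b was lower too (log2 -2.56, adjusted p = 7.44e-06).

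Rsad2 encodes viperin, which makes a chain-terminating nucleotide, and its neighbour Cmpk2, which starts 12.8 kb away on the opposite strand, encodes a nucleotide kinase. Rsad2 (chr12:26442746-26456452) had 0.142, 0.0938 and 0.228 RPKM in stimulated libraries, against 1.64, 4.70 and 14 RPKM in unstimulated ones. The groups did not overlap, but the unstimulated libraries spanned an 8.56-fold range, the widest of any member. Its log2 fold change was -2.40 (adjusted p = 0.00711), or -1.75 without unstimulated replicate 3 (adjusted p = 0.00264). Cmpk2 had 0.426, 0.479 and 0.585 RPKM in stimulated libraries, against 4.04, 5.15 and 7.25 RPKM in unstimulated ones (log2 -2.09, adjusted p = 5.38e-05). Both genes of the pair thus had the same order of the unstimulated libraries, lowest in replicate 1 and highest in replicate 3. Isg20, an RNA exonuclease, had that order as well, at 5.15, 6.65 and 15.4 RPKM in unstimulated libraries, while its stimulated libraries were at 0.851, 0.834 and 1.07 RPKM (log2 -2.26, adjusted p = 0.000841).

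Among proteins that act at membranes, Ifitm3, which blocks the fusion of viruses with the endosome, and Bst2 (tetherin), which holds budding virions at the cell surface, differed in direction. Ifitm3 (chr7:141009586-141010770) had 5.44, 3.68 and 6.98 RPKM in stimulated libraries, against 61.3, 65.2 and 93.6 RPKM in unstimulated ones. Its log2 fold change of -3.56 (adjusted p = 1.62e-05) was the largest of the 34 members tested on the scale of RPKM + 1. By mean RPKM it was 13.7-fold lower, less than Ifit3, Rsad2, Rtp4, Oas2 and Oasl2. At least 10-fold lower by mean RPKM were 7 members, these 6 and Cmpk2, and 8.20% of all genes tested. All of the 7 but Ifitm3 (6 members) stayed below 1 RPKM in every stimulated library and entered only through the unstimulated ones, so nothing is read from that share. Bst2 (chr8:71534255-71537456) had 51.7, 41.2 and 46.5 RPKM in stimulated libraries, against 23.1, 25.8 and 24.7 RPKM in unstimulated ones (log2 0.89, adjusted p = 0.000128). Every stimulated library was above every unstimulated one, and Bst2 moved to the second highest place of the 35 genes in stimulated cells, from the sixth in unstimulated cells. Rtp4, an interferon-induced protein of antiviral function, was lower with little spread. It (chr16:23520291-23614222) had 0.227, 0.381 and 0.247 RPKM in stimulated libraries, against 9.94, 10.6 and 9.93 RPKM in unstimulated ones (35.6-fold lower, log2 -3.12, adjusted p = 7.13e-07).

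The Mx proteins are dynamin-like GTPases that block the nucleocapsids of viruses, and their genes start 72.4 kb apart on chromosome 16. Mx1 had 1.13, 1.28 and 0.991 RPKM in stimulated libraries, against 6.76, 7.80 and 9.47 RPKM in unstimulated ones (log2 -2.07, adjusted p = 1.22e-05). Mx2, annotated as a polymorphic pseudogene, averaged 2.46 ± 0.333 RPKM in stimulated and 7.82 ± 2.00 RPKM in unstimulated cells (SD, n = 3 each; log2 -1.33, adjusted p = 0.000424). Both Mx genes were lower in every stimulated library. Sp100, a component of the nuclear bodies that repress viral genomes, had 9.72, 10.2 and 10.6 RPKM in stimulated libraries, against 51.2, 56.2 and 55.7 RPKM in unstimulated ones (log2 -2.31, adjusted p = 7.13e-07). Xaf1, which promotes cell death by opposing the inhibitor Xiap, averaged 1.10 ± 0.229 RPKM in stimulated and 6.03 ± 1.01 RPKM in unstimulated cells (log2 -1.74, adjusted p = 3.34e-05).

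The oligoadenylate synthetases make the messenger that activates RNase L, and their members on chromosome 5 did not share a direction. Oas1a had 0.933, 0.735 and 1.09 RPKM in stimulated libraries, against 6.06, 4.96 and 7.48 RPKM in unstimulated ones (log2 -1.89, adjusted p = 3.41e-05), with reads that may be split with its near copy Oas1g. Oas2 was 32.7-fold lower, at 0.0754 ± 0.00183 RPKM in stimulated and 2.47 ± 0.670 RPKM in unstimulated cells (SD, n = 3 each; log2 -1.67, adjusted p = 5.38e-05). Oas3, whose start site is 27.8 kb from that of Oas2, was higher instead. It had 6.02, 5.61 and 5.84 RPKM in stimulated libraries, against 3.44, 3.59 and 4.91 RPKM in unstimulated ones, and the groups did not overlap (log2 0.47, adjusted p = 0.0103). The start sites of the OAS-like genes Oasl2 and Oasl1 lie 26.3 kb apart. Oasl2 was 17.7-fold lower, at 0.0928 ± 0.0102 RPKM in stimulated and 1.64 ± 0.367 RPKM in unstimulated cells (log2 -1.26, adjusted p = 8.58e-05). Oasl1, which in mouse limits the translation of Irf7, had 1.60, 2.52 and 1.59 RPKM in stimulated libraries and 1.36, 2.29 and 2.42 RPKM in unstimulated ones, and the groups overlapped (adjusted p = 0.804). Whether the change of Oas3 differed from that of Oas2, or that of Oasl1 from that of Oasl2, was not tested.

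All 3 helicase sensors of viral RNA in the cytosol were lower. Ddx58 (RIG-I) had 2.44, 2.64 and 2.71 RPKM in stimulated libraries, against 13.3, 15.3 and 14.8 RPKM in unstimulated ones (log2 -2.10, adjusted p = 2.04e-06). Ifih1 (MDA5) was at 1.48 ± 0.217 RPKM in stimulated and 4.44 ± 0.740 RPKM in unstimulated cells (log2 -1.13, adjusted p = 0.000183), and Dhx58 (LGP2), the modulator of both, at 1.57 ± 0.183 RPKM in stimulated and 4.37 ± 1.03 RPKM in unstimulated cells (SD, n = 3 each; log2 -1.05, adjusted p = 0.000611). Zbp1, a sensor of left-handed nucleic acid that can start necroptosis, had 5.87, 6.71 and 7.27 RPKM in stimulated libraries, against 13.8, 13.2 and 14.3 RPKM in unstimulated ones (log2 -0.96, adjusted p = 6.07e-05). Eif2ak2 (PKR), the kinase that halts translation when it binds double-stranded RNA, did not pass the test. It had 5.36, 5.20 and 5.04 RPKM in stimulated libraries and 3.70, 4.20 and 6.5 RPKM in unstimulated ones, where replicate 3 alone was above the stimulated range (log2 0.13, 95% interval -0.29 to 0.54, adjusted p = 0.524). Without that library its log2 fold change was 0.33 (adjusted p = 0.00717). Adar, which edits double-stranded RNA and keeps it from the sensors, was lower by a small margin, at 14 ± 0.717 RPKM in stimulated and 24.3 ± 1.16 RPKM in unstimulated cells (log2 -0.75, adjusted p = 4.93e-05). Samhd1, which hydrolyses deoxynucleotides, was at 31.8 ± 1.56 RPKM in stimulated and 47.2 ± 2.71 RPKM in unstimulated cells (log2 -0.56, adjusted p = 0.000231).

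Genes of the ubiquitin-like modifier Isg15 and of ADP-ribosylation were split between genes that were lower and genes that did not pass the test. Isg15 itself had 7.44, 8.40 and 7.06 RPKM in stimulated libraries and 6.87, 7.27 and 8.09 RPKM in unstimulated ones, and the groups overlapped (log2 0.04, 95% interval -0.18 to 0.25, adjusted p = 0.716). Usp18, which removes Isg15 from proteins and also blocks the receptor chain Ifnar2, had 6.48, 6.16 and 6.81 RPKM in stimulated libraries and 7.35, 7.46 and 6.19 RPKM in unstimulated ones (log2 -0.09, 95% interval -0.30 to 0.12, adjusted p = 0.355). Its log2 fold change was -0.17 without unstimulated replicate 3 (adjusted p = 0.0475). Herc6, the ligase that attaches Isg15 in mouse, was 5.22-fold lower, at 0.620 ± 0.103 RPKM in stimulated and 3.24 ± 0.132 RPKM in unstimulated cells (SD, n = 3 each; log2 -1.39, adjusted p = 1.23e-05). Of the ADP-ribosyltransferases, Parp14 had 8.89 ± 0.581 RPKM in stimulated and 21.6 ± 0.665 RPKM in unstimulated cells (log2 -1.20, adjusted p = 7.63e-06). Parp9 and the ubiquitin ligase Dtx3l, which act as a complex, start 681 bases apart on opposite strands and overlap over 682 bases, so without stated strand-specific counting their reads are not fully separable. Parp9 had 14, 13.2 and 13 RPKM in stimulated libraries and 13.7, 14.5 and 16 RPKM in unstimulated ones, which overlapped (log2 -0.12, adjusted p = 0.153). Dtx3l had 18.1, 18.6 and 18.2 RPKM in stimulated libraries, against 21.5, 23 and 19.6 RPKM in unstimulated ones (log2 -0.21, adjusted p = 0.0258). That change is no larger than the median of all genes, and the call was lost when any library other than unstimulated replicate 3 was left out (adjusted p = 0.0597 to 0.0748).

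The remaining members included the most abundant one. Ifi27l2a, which encodes a small interferon-induced membrane protein, had 127, 130 and 140 RPKM in stimulated libraries, against 157, 168 and 165 RPKM in unstimulated ones (log2 -0.30, adjusted p = 0.00416). It supplied 33.8% to 36.7% of the summed RPKM of the 35 genes in stimulated libraries and 23.7% to 26.6% in unstimulated ones. Its change lay near the median of all genes, and on summed allelic counts its direction turned (log2 0.11, edgeR adjusted p = 0.208). Trim30a, which restrains signalling from Toll-like receptors, had 30, 28.1 and 25.8 RPKM in stimulated libraries and 28.5, 32.7 and 33.6 RPKM in unstimulated ones, and the groups overlapped (log2 -0.17, 95% interval -0.38 to 0.04, adjusted p = 0.110). Its call and direction depended on the processing: it was lower without unstimulated replicate 1 (log2 -0.24, limma adjusted p = 0.0323) and after quantile normalisation (log2 -0.20, limma adjusted p = 0.0438), and higher on summed allelic counts (log2 0.26, edgeR adjusted p = 0.0146; log2 0.23, DESeq2 adjusted p = 0.0225). Ifi35 had 16.6, 18.3 and 17.2 RPKM in stimulated libraries and 17.3, 17.5 and 17.3 RPKM in unstimulated ones (95% interval of the log2 fold change -0.14 to 0.13, adjusted p = 0.986). Ifi44 was not tested with the filter, since its highest value was 0.988 RPKM. It had 0.115, 0.105 and 0.0697 RPKM in stimulated libraries, against 0.882, 0.974 and 0.988 RPKM in unstimulated ones, and the groups did not overlap.

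**Figure D2:**
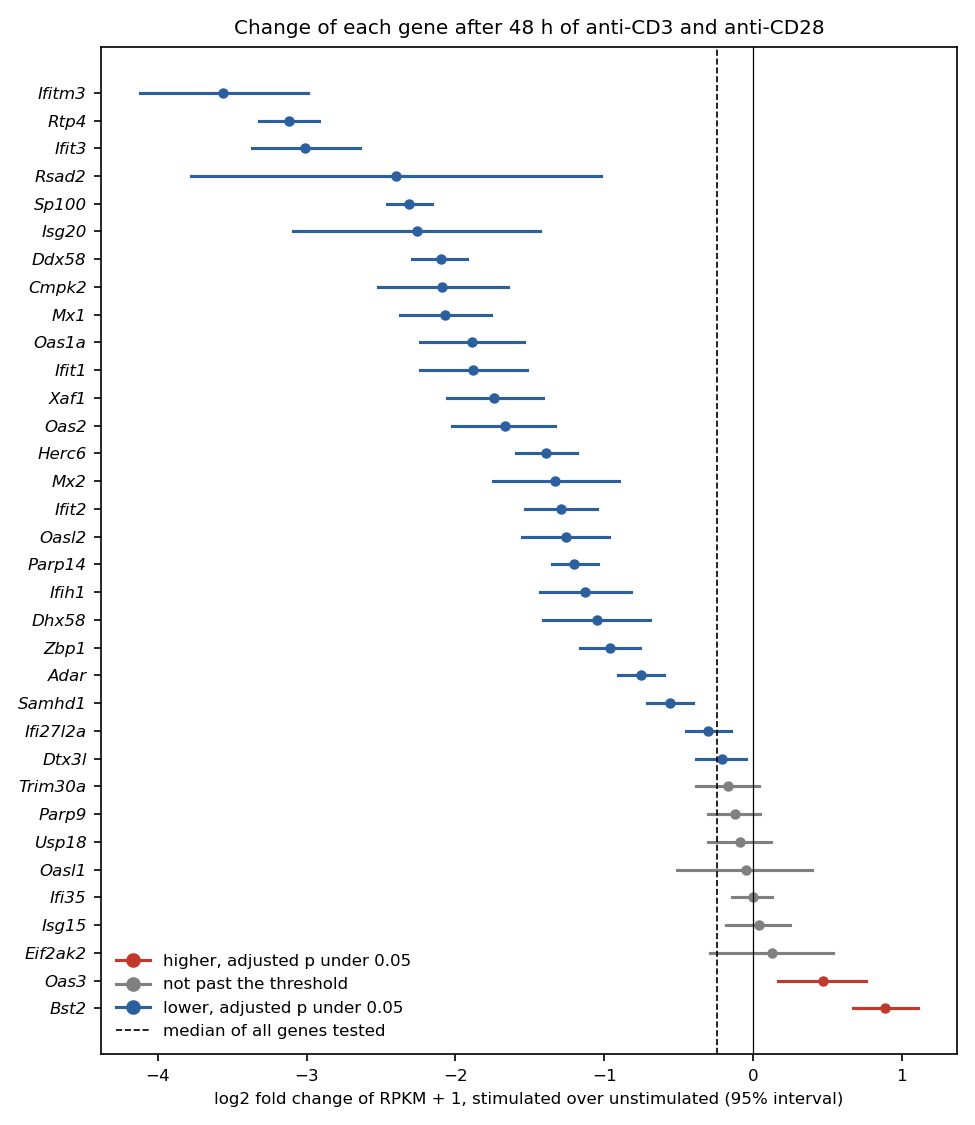
Log2 fold change of RPKM + 1, stimulated over unstimulated, of the 34 members tested, with 95% intervals from limma; the dashed line is the median of all genes tested, -0.24. The genes run from Ifitm3 at -3.56 to Bst2 at 0.89, and 7 grey intervals cross 0.

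Which members did not pass the test depended on the processing. After median centring Isg15, Eif2ak2 and Ifi35 joined Bst2 and Oas3 as higher, at log2 0.30, 0.39 and 0.26. In edgeR on allelic counts summed over both alleles, which also changes the reads used, the genes tested and the model, 23 members were lower and 7 were higher, against 38.5% and 35.8% of 14916 genes. Quantile normalisation gave 25 lower and 5 higher, against 36.7% and 40.6% of all genes. Of the 25 members lower as deposited, 22 were also lower in edgeR on summed counts, 23 after median centring and 24 after quantile normalisation. Ifi27l2a and Dtx3l were the ones lost under median centring, and Samhd1 was lost with them in edgeR on summed counts (log2 -0.13, adjusted p = 0.0837). Dtx3l was called higher there (log2 0.20, adjusted p = 0.0484).

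The rest of the pathway was read from lists of other genes. Of 21 interferon genes, 14 were listed at 0 RPKM in all 6 libraries, Ifnb1 among them, and no type I or type III interferon gene passed the filter. The exception in that list was Ifng, the type II interferon made by activated T cells, at 169 ± 37.9 RPKM in stimulated and 11.9 ± 1.13 RPKM in unstimulated cells (SD, n = 3 each; log2 3.70, limma adjusted p = 3.61e-06). The receptor chains Ifnar1 (log2 -1.19, adjusted p = 3.47e-06) and Ifnar2 (log2 -1.22, adjusted p = 1.05e-05) were lower. Jak1, at 38.6 ± 1.79 RPKM in stimulated and 120 ± 6.90 RPKM in unstimulated cells, was lower as well (log2 -1.61), as was Tyk2 (log2 -0.87). The ISGF3 subunit Irf9 was lower (log2 -1.5), while Stat2 was higher, at 17.8 ± 0.807 RPKM in stimulated and 13.5 ± 1.02 RPKM in unstimulated cells (log2 0.38, adjusted p = 0.00241).

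Of 6 interferon regulatory factors, 5 were lower, led by Irf7, the factor that amplifies interferon production, at 1.16 ± 0.191 RPKM in stimulated and 12.7 ± 0.134 RPKM in unstimulated cells (log2 -2.67, adjusted p = 1.31e-06). Irf2 (log2 -1.56), Irf5 (-1.48) and Irf1 (-1.34) were lower as well, and Irf8 was higher (0.61). Of 5 inhibitors of interferon signalling, 3 were higher and 2 lower, against 31.2% and 48.9% of all genes tested. After median centring 3 were higher and 1 lower, against 40.9% and 39.2%. The higher ones were Socs1, which blocks the receptor kinases, at 131 ± 5.83 RPKM in stimulated and 22.7 ± 5.15 RPKM in unstimulated cells (log2 2.49, adjusted p = 1.25e-05), the phosphatase Ptpn2 (log2 1.38) and Socs3 (log2 0.86). The SUMO ligase Pias1 was lower (log2 -1.39). Of 13 nucleic acid sensors and adaptors tested, 3 were higher and 8 lower, or 5 higher and 6 lower after median centring. The endosomal receptors Tlr9 (log2 -2.80), Tlr7 (-2.14) and Tlr3 (-1.34) and the kinase Ikbke (-2.28) were lower. The myeloid and B cell markers above had the same direction, as had 48.9% of all genes tested. Whether other cell types had a part in these changes was not tested.

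A further list of 35 interferon-stimulated genes outside the set was mostly lower too. Of 33 tested, 30 were lower, 0 were higher and 3 did not pass, or 27 lower and 2 higher after median centring. Of those tested, 10 stayed below 1 RPKM in every stimulated library and entered only through the unstimulated ones. The largest changes were those of the nucleic acid binding proteins Ifi203 (log2 -4.77), Ifi209 (-4.75) and Ifi213 (-3.86) and of Ifit1bl1 (-3.42). Genes best known for their response to interferon gamma, mostly GTPases that attack the vacuoles of parasites, were split: of 17 tested, 13 were lower and 3 were higher. Gbp5 (log2 1.13), Gbp2 (1.06) and Igtp (1.06) were higher, while Gbp9 (-2.73), Ciita (-2.40), Gbp4 (-1.98) and Gbp8 (-1.91) were lower. Of all genes tested, 48.9% were lower, and nothing particular to these lists is read from their counts.

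The F1 cross allowed the reads of each member to be split between the cast and mus alleles, as the cast share of allelic reads. Summed over the 35 genes, it was 50.5%, 50.3% and 50.5% in the stimulated libraries and 50.6%, 49.9% and 49.5% in the unstimulated ones, close to the 49.3% to 49.4% of all autosomal reads. Genes with many reads weigh most in these sums: Samhd1 alone gave 8741 of the 28345 reads in stimulated replicate 1. Single genes departed from balance. A cast to mus ratio was tested with edgeR (quasi-likelihood, Benjamini-Hochberg over 12470 autosomal genes) for the 33 members whose allelic reads reached 30 in both groups, summed over libraries; Oas2 and Ifit3 had too few. In stimulated cells 6 members had more cast reads and 6 more mus reads, and 35.9% of all genes tested passed in either direction. In unstimulated cells 7 had more cast and 6 more mus reads, with 30.8% of all genes. With the replicate block 12 members passed in stimulated cells, against 38.2% of all genes, and 14 in unstimulated cells, against 32.6%. Without the block, 18 of the 33 members passed at least 1 of 3 allelic tests (either group, or the change between them), as did 46.4% of all genes, and 20 had mean shares from 40% to 60% in both groups.

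Mx1, Mx2 and Bst2 had more cast than mus reads in both groups. Mx2 was at 94.6% ± 1.18 cast in stimulated and 91.3% ± 2.85 in unstimulated cells (SD, n = 3 each), and Bst2 at 73.7% ± 0.830 in stimulated and 66.7% ± 5.71 in unstimulated cells. C57BL/6 mice, the mus parent, are known to carry defective alleles at both Mx genes. Whether these alleles had a part in the shares was not tested. Ifit2, Ddx58, Samhd1 and Eif2ak2 had more mus reads in both groups. Ifit2 was the most skewed of these, at 18.8% ± 4.96 cast in stimulated and 21.9% ± 1.47 in unstimulated cells, and its neighbour Ifit1 was near balance, at 45.3% ± 7.91 in stimulated and 46.6% ± 5.34 in unstimulated cells. Samhd1 was skewed by little, at 46.2% ± 0.565 in stimulated and 46.8% ± 1.13 in unstimulated cells, with 32682 reads behind the stimulated and 26517 behind the unstimulated share. Members skewed in 1 group and not past the test in the other were Zbp1, Ifih1 and Parp14 (cast, stimulated), Herc6 and Usp18 (mus, stimulated), Ifi44, Rtp4, Rsad2 and Ifi27l2a (cast, unstimulated), and Oasl2 and Cmpk2 (mus, unstimulated). Several calls lay near the threshold and were lost with fewer libraries or with another method, while the ratio stayed of similar size. That of Herc6 (log2 -0.40) was lost with the replicate block (edgeR adjusted p = 0.0681) and when any 1 stimulated library or unstimulated replicate 2 was left out (log2 -0.43 to -0.35, 0.0517 to 0.174). With all libraries kept, it was also lost without a read minimum (edgeR adjusted p = 0.0632), with TMM factors (edgeR adjusted p = 0.0705) and in DESeq2 (adjusted p = 0.127). That of Ifih1 (log2 0.42) was lost without stimulated replicate 1 (log2 0.38, adjusted p = 0.0521) or 2 (log2 0.37, 0.0545). In unstimulated cells the call of Cmpk2 (log2 -0.90) was lost when any 1 unstimulated library was left out (log2 -0.96 to -0.79, adjusted p = 0.0829 to 0.202). Rsad2 (log2 0.92) lost its call without replicate 2 (log2 0.87, 0.107) or 3 (log2 0.89, 0.281), and Rtp4 (log2 0.68) without replicate 2 (log2 0.57, 0.066). Eif2ak2 (log2 -0.38) lost its call without replicate 2 (log2 -0.29, 0.16) or 3 (log2 -0.40, 0.0662). With all libraries kept, Eif2ak2 also lost it with TMM factors (log2 -0.31, edgeR adjusted p = 0.063) and in DESeq2 (log2 -0.38, adjusted p = 0.0829). No member was skewed to cast in one group and to mus in the other. Whether mapping to the reference genome of the mus parent moved these shares was not tested; the autosomal share near 50% holds for the sum and not for each gene.

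**Figure D3:**
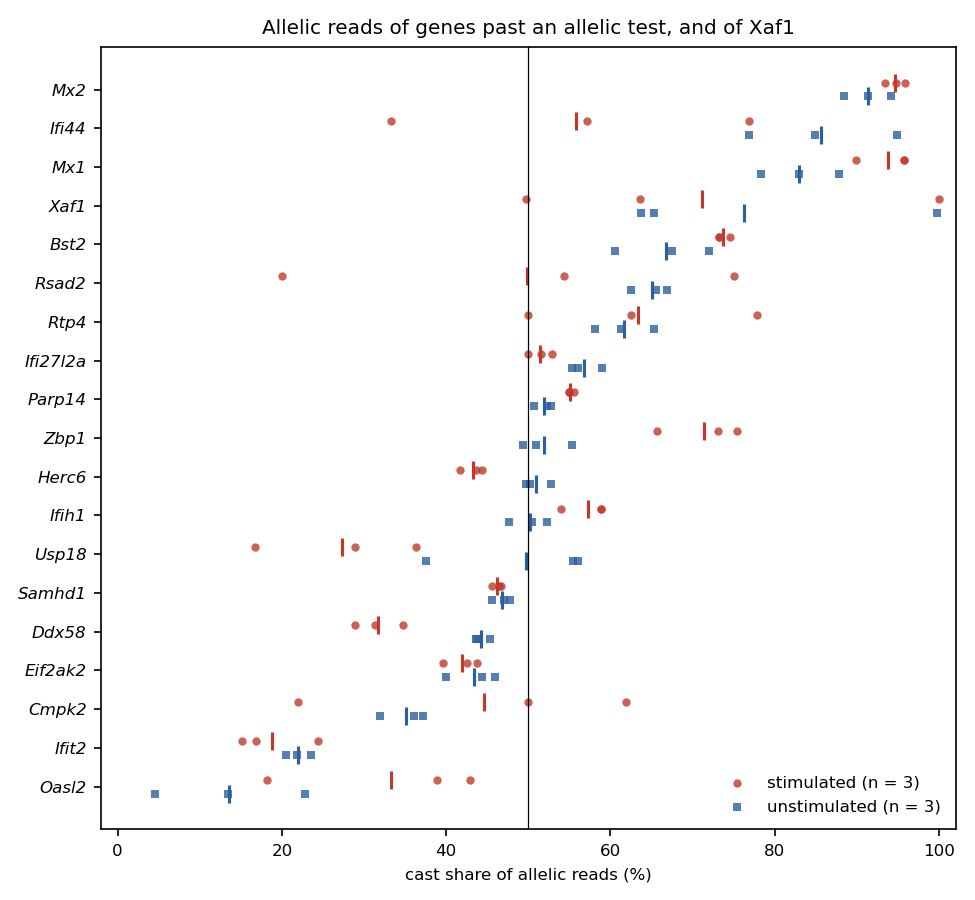
Cast share of allelic reads (%) in each of 3 stimulated libraries (circles) and 3 unstimulated libraries (squares), with short lines at the group means, for the 18 members that passed an allelic test and for Xaf1. Zbp1 is near 50% in unstimulated and at 65.7% to 75.4% in stimulated libraries, and Xaf1 has 1 point of each group near 100%.

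The cast to mus ratio itself differed between the groups in 4 of the 33 members, against 10.9% of all genes tested. In stimulated cells 2 were shifted towards cast (5.95% of all genes) and 2 towards mus (4.96%). For Zbp1 the cast share was 65.7%, 75.4% and 73.1% in stimulated libraries, against 55.3%, 49.4% and 50.9% in unstimulated ones, and the groups did not overlap (log2 change of the ratio 1.23, edgeR adjusted p = 0.000116). The cast transcripts were at 38.9 ± 6.62 reads per M allelic reads in stimulated and 48.7 ± 3.02 in unstimulated cells, and the mus transcripts at 15.3 ± 1.46 in stimulated and 45.2 ± 2.76 in unstimulated cells. Over all cells of a library, the lower level of Zbp1 in the stimulated group was therefore mostly a lower level of the mus allele. Markers of other cell types also differed between the groups, as given above. Their part in this and the other changes of the ratio was not tested. Ddx58 went the other way, with cast shares of 34.8%, 28.9% and 31.3% in stimulated libraries, against 43.7%, 45.3% and 43.6% in unstimulated ones (log2 -0.78, adjusted p = 0.000245). Here both alleles were at lower levels in stimulated cells, the cast allele at 12.5 ± 0.308 against 86.2 ± 5.88 reads per M and the mus allele at 27.1 ± 3.03 against 109 ± 3.36.

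Mx1 had cast shares of 95.7%, 89.9% and 95.7% in stimulated libraries, with 141, 179 and 164 reads, against 83.0%, 87.8% and 78.3% in unstimulated ones (log2 1.58, adjusted p = 0.0103). The change did not pass without stimulated replicate 1 (adjusted p = 0.0592) or replicate 3 (adjusted p = 0.056). For Ifi27l2a the share was 52.9%, 51.5% and 49.9% in stimulated libraries, against 56.1%, 55.3% and 59.0% in unstimulated ones (log2 -0.32, adjusted p = 0.0348), and the call was lost when stimulated replicate 2 or 3 or unstimulated replicate 1 or 3 was left out (adjusted p = 0.0594 to 0.132). The call was also lost in DESeq2 with all libraries kept (log2 -0.32, adjusted p = 0.0959). With the replicate number as a block, 7 members passed, against 13.5% of all genes. The additions were Ifi44 (55.8% ± 21.8 cast in stimulated and 85.6% ± 9.01 in unstimulated cells, adjusted p = 0.00567), Oasl2 (33.3% ± 13.3 in stimulated and 13.6% ± 9.13 in unstimulated cells, adjusted p = 0.0188) and Usp18 (27.3% ± 9.91 in stimulated and 49.7% ± 10.4 in unstimulated cells, adjusted p = 0.0431). Ifi44 and Oasl2 had only 81 and 68 allelic reads over the stimulated libraries.

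Xaf1 (chr11:72301629-72313733) varied with the replicate number. In both libraries numbered 1 nearly all of its reads were cast: 100% of 163 reads in the stimulated library (95% Clopper-Pearson interval 97.8% to 100%) and 99.7% of 622 reads in the unstimulated one (98.8% to 100%). The other stimulated libraries were at 49.7% (41.9% to 57.5%) and 63.6% (55.8% to 71.0%), and the other unstimulated libraries at 63.7% (58.6% to 68.6%) and 65.3% (61.1% to 69.3%). Its RPKM in the libraries numbered 1 was not low: 1.35 against 1.05 and 0.900 in the other stimulated libraries, and 7.10 against 5.10 and 5.89 in the other unstimulated libraries. The cast to mus ratio of Xaf1 did not pass the test in stimulated cells (log2 1.37, adjusted p = 0.233) or unstimulated cells (log2 1.98, adjusted p = 0.0548). With the replicate block it passed in both (log2 2.98, adjusted p = 4.63e-14 stimulated; log2 3.42, adjusted p = 1.01e-20 unstimulated). Without both libraries numbered 1 it was log2 0.39 in stimulated (adjusted p = 0.238) and 0.86 in unstimulated cells (adjusted p = 0.00694).

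A search prompted by these values asked which other genes shared the pattern, that is a cast share of 90% or more in both libraries of a number and of 25% to 75% in the other 4. Of 10488 autosomal genes that had 20 or more allelic reads in each library, 7 did for number 1, and 6 of them lie on chromosome 11: Ublcp1, Vamp2, Eif5a, C1qbp, 4933427D14Rik and Xaf1. For number 2 there were 5 genes, all on chromosome 1, and for number 3 there were 0. No gene was at 10% or less in the same way. The stretch around Xaf1 was not skewed throughout: of 71 genes within 3 Mb on either side, 3 were at 90% cast or more in both libraries numbered 1, and 38 were at 40% to 60% in both. The gene next to Xaf1 in that group, 4933427D14Rik, was at 100% cast in both libraries numbered 1 and at 48.0% to 59.9% in the other 4. The reason was not tested.

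**Figure D4:**
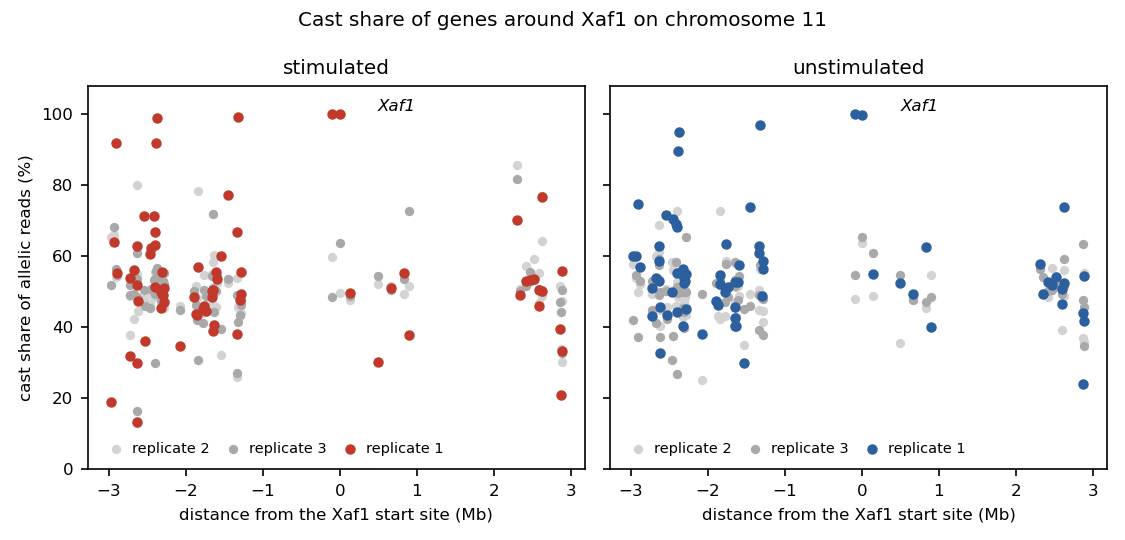
Cast share of allelic reads (%) of autosomal genes with at least 20 reads in every library within 3 Mb of Xaf1, by distance from its start site (Mb), in stimulated (left) and unstimulated (right) libraries; coloured points are replicate 1 and grey points replicates 2 and 3. In replicate 1, Xaf1, Eif5a, C1qbp and 4933427D14Rik are at 90% or more in both panels, among many genes near 50%. Cyb5d1 (92.0%) and Gps2 (91.8%) are so in the left panel only.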

How the data were processed

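The authors deposited RPKM per gene (both alleles together) and, per allele (mus or cast), read counts per gene, per the file headers. STAR 2.7.1a, featureCounts and the mm10 build are named in the submitters' processing notes. The assignment of reads to alleles, the use of strand and the annotation are not given in the sources used. Of the genes, 99.3% matched GENCODE M21 by identifier. Of allelic counts from 1 to 20, 73.9% were even, so mates of a pair may be counted separately, and intervals, which cover counting error only, are then too narrow.

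Expression was tested with limma 3.58.1 (trend, two-sided, R 4.3.3) on log2(RPKM + 1). A gene entered with 1 RPKM or more in 3 or more libraries; fold changes on that scale understate changes of low genes. Cast to mus ratios, and their change between groups, were tested with edgeR 4.0.16 (quasi-likelihood, 1 term per library) for autosomal genes whose allelic reads reached 30 in both groups. P-values were adjusted by Benjamini-Hochberg over every gene in a test, and the threshold was 0.05.

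Equal replicate numbers shared an allelic signature: log2 cast to mus ratios, centred within groups, correlated at 0.275, 0.286 and 0.173 across 9043 genes, which are not independent replicates. Blocked values of allelic tests are given where they change a call. Alternatives were another pseudocount, no filter, 2 other scalings, DESeq2 1.42.0, edgeR on summed counts, other read minimums, TMM factors, the block, and leaving out each library; leaving out both libraries numbered 1 was chosen after seeing the data. The members, the lists of other genes and the rule for naming genes (the 10 largest changes, all changes against the majority, all members not past the test, and all past an allelic test; per other list the 4 largest changes, with the receptor and ISGF3 list reported only in part here) were chosen with earlier results of these data known.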

Additional observations from a re-analysis of the deposited data

Results flagged for a closer look

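The cast to mus ratio differed between stimulated and unstimulated cells in 4 members by the test of the difference itself (edgeR quasi-likelihood, allele by group), out of 33 tested, where 10.9% of all genes tested passed. The log2 change of the ratio was 1.23 for Zbp1, 1.58 for Mx1, -0.78 for Ddx58 and -0.32 for Ifi27l2a. In each of the 4 genes the shares of the 3 stimulated libraries did not overlap those of the 3 unstimulated ones. The 4 were picked by the test on these same shares, so the lack of overlap adds no further support. Without both libraries numbered 1, and so with fewer libraries, the changes of Zbp1 (log2 1.52, adjusted p = 0.000138) and Ddx58 (log2 -0.89, adjusted p = 0.00147) also passed. Those of Mx1 (log2 1.39, adjusted p = 0.104) and Ifi27l2a (log2 -0.38, adjusted p = 0.0649) did not. No explanation for these differences was tested.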

How the results depend on the processing

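The number of members lower in stimulated cells was 25 and ranged from 23 to 26 over all alternatives; leaving out 1 library gave 24 to 26 lower and 2 to 3 higher. The number higher was 2, and it was 5 after median centring, 5 after quantile normalisation, 7 in edgeR and 6 in DESeq2 on summed allelic counts. The first pair of these settings change the scaling alone, and the last pair also change the reads used, the genes tested (14916 in edgeR, in place of 13288) and the model; the cause was not tested. Directions turned only for members whose log2 fold change lay between -0.30 and 0.13. Under median centring the log2 fold change was 0.21 for Oasl1, 0.17 for Usp18, 0.09 for Trim30a, 0.26 for Ifi35, 0.05 for Dtx3l and 0.14 for Parp9. Under quantile normalisation it was 0.53 for Oasl1, 0.16 for Usp18 and 0.04 for Ifi35. In edgeR on summed allelic counts it was 0.67 for Oasl1, 0.02 for Usp18, 0.26 for Trim30a, 0.37 for Ifi35, 0.11 for Ifi27l2a, 0.20 for Dtx3l and 0.22 for Parp9. In DESeq2 on the same counts it was 0.63 for Oasl1, 0.23 for Trim30a, 0.35 for Ifi35, 0.09 for Ifi27l2a, 0.17 for Dtx3l and 0.19 for Parp9. Leaving out 1 library gave -0.03 to 0.09 for Isg15, -0.22 to 0.05 for Oasl1, -0.04 to 0.03 for Ifi35 and -0.01 to 0.33 for Eif2ak2. Expression of equal replicate numbers, centred within groups, correlated little (0.00603, 0.0611 and 0.0908 across 13288 genes). That does not show whether equal numbers share an animal, and their allelic ratios did correlate. The replicate block left the counts of members at 25 lower and 2 higher. In the allelic tests the replicate block gave 7 members with a changed ratio in place of 4. Without both libraries numbered 1 there were 2, and 797 of all genes in place of 1361, from fewer libraries; the cause was not tested further. Depth limits the allelic comparison of Ifit3 and Oas2, which had too few reads in stimulated cells to be tested.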
